A study of Rattus norvegicus with 9 samples.

Results

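The AFMC conduit, a tube whose lumen holds aligned fibers and lengthwise microchannels, was compared with the Hollow conduit, an empty tube with no internal guidance. Both bridged a 2 cm gap in the sciatic nerve of rats, and the tissue inside was taken at day 14 for RNA sequencing. The comparison rests on 6 of the 9 libraries of the series, 3 per group, chosen by their group labels. The other 3 libraries came from AFMC-AA-SP conduits, which add spermidine and L-ascorbic acid to the AFMC design. They entered the filter on low counts, the scaling of the libraries and the estimate of the spread, but not the contrast itself. The labels name no agent in the Hollow or AFMC conduits. The sources used here do not give strain, sex, age or the number of animals, so p-values measure only the spread between these libraries. All 15659 genes that passed a filter on low counts are covered, of 21486 in the deposited table. Library totals ran from 18314489 to 26074134 counts.

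A long gap bridged by a tube fills with a fibrin cable, into which macrophages, fibroblasts, endothelial cells and Schwann cells move before axons cross. Schwann cells, the glia of peripheral nerve, return to an immature repair state after injury, release trophic and guidance factors and help to clear myelin. Fibers and channels give these cells a surface to follow, and as a solid material they also meet macrophages and other cells of the response to a foreign body. Bulk RNA reports the sum over these cells, so that fewer cells of a type and less RNA per cell cannot be told apart.

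No gene separated AFMC from Hollow at an adjusted p under 0.05. By edgeR's quasi-likelihood test with Benjamini-Hochberg adjustment, 0.0% of genes were called in either direction, and the smallest adjusted p was 0.102. At an unadjusted p under 0.05, 1316 genes were higher in AFMC, which is 8.4% of those tested, and 1739 were lower, which is 11.1%. DESeq2 on the same counts called 409 genes higher, or 2.61%, and 612 lower, or 3.91%. Without AFMC-3 it called 113 higher, or 0.722%, and 241 lower, or 1.54%, of which 100 and 223 were also called with all libraries. In 1598 genes, or 10.2%, all 3 AFMC libraries lay above all 3 Hollow libraries, and in 1928, or 12.3%, all lay below. The call also turned on AFMC-2, the AFMC library nearest to Hollow: edgeR called 217 genes higher and 677 lower without it, 4 and 1 without AFMC-1, and 0 and 0 without AFMC-3 or any 1 Hollow library. Genes are therefore described here by their level in every library, and the words higher and lower refer to those levels. Genes named for the smallest p in a class, or outside all classes, were picked from those whose groups did not overlap. For them the lack of overlap is no result. Counts of family members that were higher or lower are at an unadjusted p under 0.05 and are to be read against the 8.4% and 11.1% of all genes, or without AFMC-3 against 5.8% and 8.64%. Members called positive or negative are counted by sign alone, against 52.1% positive and 47.9% negative among all genes.

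AFMC-3 stood apart from the other 5 libraries. Expression levels are given as CPM, read counts scaled to the library total. On principal component 1 of the log2 CPM values, with 42.4% of the variance, AFMC-3 scored -67.5, AFMC-1 and AFMC-2 scored -4.63 and 1.60, and the Hollow libraries scored 26.6, 24.8 and 19.1. AFMC-1 led the second component, with 18.8% of the variance, at 41.9. In AFMC-3, 958 genes lay over 2-fold above the Hollow mean of log2 CPM and 706 over 2-fold below it. The counts were 355 and 444 in AFMC-1 and 245 and 274 in AFMC-2. Single Hollow libraries, set against the mean of the other Hollow libraries, had 192 to 361 genes above and 216 to 366 below, and both counts of AFMC-2 lay within these ranges. Library composition also followed gene length: Spearman's rho between length and a library's deviation, across genes, which are not independent replicates, was -0.291, 0.0469 and -0.165 in AFMC and 0.277, 0.138 and 0.0868 in Hollow. Genes lower in all AFMC libraries had a median length of 4275 bp, those higher 2372 bp and all tested genes 2956 bp. Values with a correction for length are given for some families and genes only. A value printed without one may also change with that correction.

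**Figure D1:**
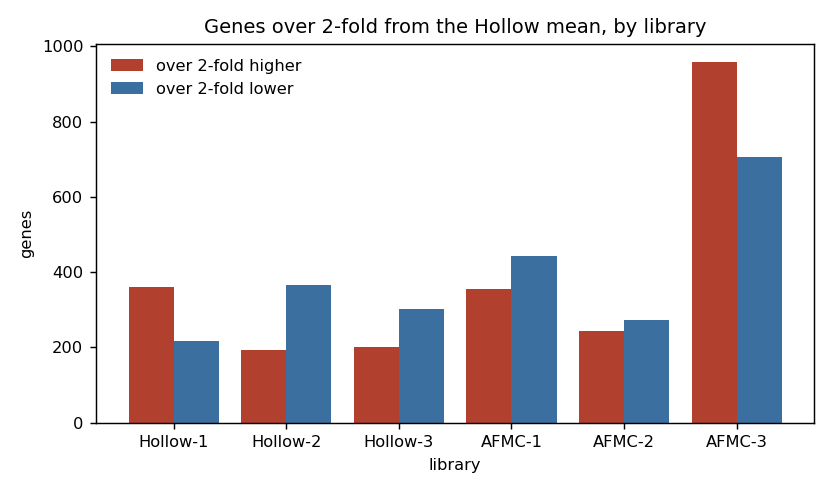
Number of tested genes (vertical axis) lying over 2-fold above (red) or below (blue) the Hollow mean in each library (horizontal axis), with each Hollow library set against the mean of the other Hollow libraries. AFMC-3 has 958 genes above and 706 below, while AFMC-2, at 245 and 274, lies within the range of single Hollow libraries.

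The tissue label was checked on marker genes. Schwann cell markers were present in every library, with all 7 negative in log2 fold change, 6 of them lower at an unadjusted p under 0.05, and a summed level from 1819 to 2773 CPM across Hollow and from 1170 to 1871 CPM across AFMC. Markers of neuron cell bodies summed to at most 1.32 CPM in any library, and 1 of the 4 was at 0 in some library. Neutrophil markers summed to 32.9 to 53.5 CPM in Hollow and to 65.4, 90.4 and 573 CPM in AFMC. Of 7 tested, 6 were positive and 1 negative, with 5 higher and 1 lower at an unadjusted p under 0.05. The negative one was Mpo, at 1.51, 1.34 and 1.27 CPM across Hollow and 0.198, 0.865 and 0.248 CPM across AFMC. B and plasma cell markers summed to 24.8 to 48.8 CPM in Hollow and to 39.5, 124 and 1158 CPM in AFMC, and T cell markers to 45.0 to 66.5 CPM across Hollow and 71.4, 71.3 and 173 CPM across AFMC. Fat cell markers, from 27.2 to 36.4 CPM in Hollow, were at 6.61 to 18.5 CPM in AFMC. Skeletal muscle markers summed to 1124 CPM in Hollow-1, 1225 CPM in AFMC-1 and 470 CPM in AFMC-3, and to 83.2 to 146 CPM in the other 3 libraries. How much these cell types contribute to the gene results below was not tested.

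Where the groups did not overlap, the size of the difference came unevenly from the 3 AFMC libraries. AFMC-3 was the most extreme library for 969 of the 1598 higher genes, or 60.6%, AFMC-1 for 461 and AFMC-2 for 168. Among the 1928 lower genes AFMC-1 was the most extreme for 906, AFMC-3 for 848 and AFMC-2 for 174. Over 2-fold above the Hollow mean in all 3 AFMC libraries were 43 genes, 31 of them with a symbol, and 21 genes, 16 with a symbol, were over 2-fold below in all 3. A further 211 non-overlapping genes were over 2-fold higher in AFMC-3 alone and 121 over 2-fold lower there alone.

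**Figure D2:**
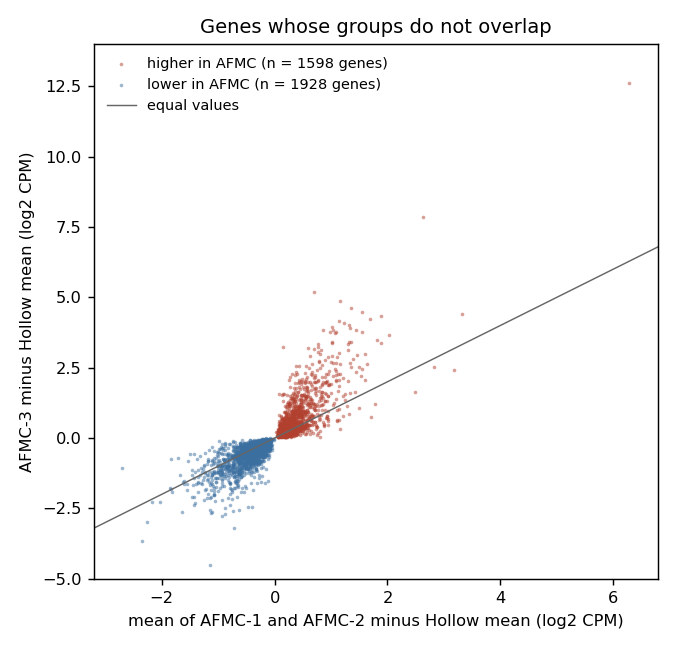
Each point is a gene whose 3 AFMC and 3 Hollow libraries do not overlap, with its mean difference from Hollow in AFMC-1 and AFMC-2 on the horizontal axis and in AFMC-3 on the vertical axis, both in log2 CPM. The 1598 higher genes (red) reach farther from the line of equal values above it than below, and the 1928 lower genes (blue) lie on both sides.

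More transcription factors were lower than higher in AFMC. By symbol family, 730 were tested, with 113, or 15.5%, lower and 56, or 7.67%, higher at an unadjusted p under 0.05, and a median log2 fold change of -0.06. With the correction for length 85 were lower and 63 higher, against 9.07% and 8.79% of all genes, so the excess of lower members was smaller on that scale. DESeq2 called 40 lower and 11 higher. Without AFMC-3, 90 were lower and 30 higher. By the deposited table's own annotation of factor families, 1146 genes were tested, with 184 lower and 74 higher.

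Among lower factors whose groups did not overlap, those with the smallest p were Zfp536, Sox2, Nfib and Zbtb44. Zfp536 (ENSRNOG00000014163, chromosome 1, 90002858 to 90462990, minus strand), a zinc finger repressor of neuronal differentiation, was at 13.8, 14.02 and 14.2 CPM across Hollow and 4.11, 6.71 and 4.47 CPM across AFMC, a log2 fold change of -1.46 ± 0.19 (SE, n = 3 per group) with an edgeR adjusted p of 0.102 and a DESeq2 adjusted p of 1.2e-08. Every AFMC library lay far under the lowest Hollow library. Sox2, a factor of immature Schwann cells and stem cells, was at 28.99, 24.7 and 28.5 CPM across Hollow and 17.5, 18.5 and 14.6 CPM across AFMC (-0.70 ± 0.12, edgeR adjusted p 0.102, DESeq2 0.00025). The Sox2 libraries were tight within each group. Nfib, a nuclear factor I protein of glial and other progenitors, was at 27.03, 18.6 and 15.8 CPM across Hollow and 6.32, 11.03 and 7.604 CPM across AFMC (-1.30 ± 0.24), and Hollow-1 was the highest of the 6. Zbtb44, a BTB zinc finger protein, was at 11.9, 12.7 and 12.3 CPM across Hollow and 7.904, 8.49 and 8.796 CPM across AFMC (-0.55 ± 0.10). Without AFMC-3 the log2 fold changes of Zfp536, Sox2, Nfib and Zbtb44 were -1.38, -0.61, -1.25 and -0.59. Since these genes were picked for groups without overlap, leaving out a library could change the size but not the sign. A signed value with ± in parentheses is a log2 fold change and its SE here and from here on, and the smallest edgeR adjusted p of any gene was 0.102.

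In the SOX family 12 of 14 tested members were negative and 4 were lower at an unadjusted p under 0.05, with a median log2 fold change of -0.32 and of -0.24 without AFMC-3. Sox10, which maintains Schwann cell identity and is also among the Schwann markers above, was at 84.7, 82.97 and 82.7 CPM across Hollow and 56.9, 67.4 and 46.1 CPM across AFMC (-0.56 ± 0.13, edgeR adjusted p 0.115). Sox11, a factor of embryonic and regenerating neurons that was chosen after its values were seen, was low in all libraries, at 2.49, 2.73 and 1.41 CPM across Hollow and 0.474, 1.08 and 0.596 CPM across AFMC (-1.63 ± 0.39, edgeR adjusted p 0.115). Foxd3, a neural crest factor of the forkhead family, was at 22.7, 19.7 and 22.2 CPM across Hollow and 12.9, 18.2 and 10.5 CPM across AFMC (-0.64 ± 0.18), and of 23 forkhead genes 17 were negative, with 5 lower and 2 higher at an unadjusted p under 0.05. Among other homeobox genes, 14 of 47 were lower and 3 higher at an unadjusted p under 0.05. These include Zeb2, needed for Schwann cells to form myelin, at 338, 304 and 287 CPM across Hollow and 190.2, 258 and 189.6 CPM across AFMC (-0.54 ± 0.13), and Prrx1, a mesenchymal factor, at 187, 178 and 164 CPM across Hollow and 112, 151 and 127 CPM across AFMC (-0.44 ± 0.11). AFMC-2 lay closest to Hollow for both. Of 29 HOX genes, 16 were negative, and 0 were lower and 2 higher at an unadjusted p under 0.05.

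Nuclear receptors, which bind steroids and related ligands, had 11 of 34 members lower, or 32.4%, and 2 higher at an unadjusted p under 0.05. Without AFMC-3 the counts were 5 and 0. The mineralocorticoid receptor Nr3c2 was at 7.87, 7.01 and 7.64 CPM across Hollow and 4.78, 5.41 and 5.37 CPM across AFMC (-0.54 ± 0.12), and the orphan receptor Nr2f2 at 119.7, 123 and 109 CPM across Hollow and 82.8, 98.6 and 69.9 CPM across AFMC (-0.49 ± 0.12). Both had an edgeR adjusted p of 0.115, and neither overlapped between groups. Of 312 zinc finger genes named Zfp or Znf, 48 were lower and 11 higher, and with the correction for length 29 were lower and 15 higher. Without AFMC-3 the counts were 32 and 7. Clock, which drives the daily rhythm, was at 85.3, 79.8 and 73.7 CPM across Hollow and 50.5, 68.6 and 52.5 CPM across AFMC (-0.48 ± 0.12), Mef2c, a muscle and neural crest factor, at 56.8, 45.4 and 47.5 CPM across Hollow and 33.9, 38.9 and 28.97 CPM across AFMC (-0.56 ± 0.13), and the ETS factor Gabpa at 56.8, 56.7 and 54.9 CPM across Hollow and 43.2, 49.04 and 41.8 CPM across AFMC (-0.33 ± 0.07). For Clock and Gabpa the correction for length moved the values to -0.35 and -0.25.

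Factors of inflammatory signaling were the opposite in sign. All 19 tested NF-kB, IRF and STAT genes had a positive log2 fold change, against 52.1% of all genes. Their median was 0.26, and 7 were higher at an unadjusted p under 0.05. Relb, an NF-kB subunit of the noncanonical arm, was at 20.1, 26.9 and 21.3 CPM across Hollow and 28.8, 29.5 and 49.3 CPM across AFMC (0.66 ± 0.21, edgeR adjusted p 0.155). The canonical subunit Rela was at 86.2, 94.1 and 87.2 CPM across Hollow and 104, 95.98 and 114 CPM across AFMC (0.23 ± 0.08). Nfkb1, which encodes p50 and was chosen after its values were seen, was at 128, 141 and 130.5 CPM across Hollow and 145, 144 and 206 CPM across AFMC (0.31 ± 0.13). AFMC-3 was the highest library for all 3 genes. Without it the family's median was 0.12, Relb stood at 0.36 and 2 members were higher at an unadjusted p under 0.05, against 5.8% of all genes in that fit. Irf7, chosen in the same way, was at 65.7, 48.8 and 137 CPM across Hollow and 189, 84.4 and 263 CPM across AFMC, and its groups overlapped.

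The factors named on the higher side differed by little. Atf4, which drives the response to amino acid shortage and other stress, was at 188, 184 and 172 CPM across Hollow and 239, 211 and 209 CPM across AFMC (0.28 ± 0.08, edgeR adjusted p 0.129). Klf2, a factor of endothelial cells and resting lymphocytes, was at 46.6, 31.03 and 33.2 CPM across Hollow and 49.6, 54.02 and 62.97 CPM across AFMC (0.59 ± 0.17). Zfp385a was at 48.8, 48.1 and 44.4 CPM across Hollow and 60.8, 51.7 and 62.4 CPM across AFMC (0.31 ± 0.08) and Zbtb7b, a factor of CD4 T cells, at 45.4, 47.9 and 45.3 CPM across Hollow and 56.2, 50.99 and 62.9 CPM across AFMC (0.29 ± 0.08). The ranges of the Klf2 groups came close, at 46.6 CPM in Hollow-1 and 49.6 CPM in AFMC-1. Of 21 AP-1 and ATF genes 13 were positive, with a median of 0.04, or -0.11 without AFMC-3. In 7, or 33.3%, all AFMC libraries lay above Hollow, and in 2 below. By unadjusted p under 0.05, 5 were higher and 1 lower, and without AFMC-3 3 were higher and 4 lower. Jun, the regulator of the repair Schwann cell, was at 204, 175 and 201 CPM across Hollow and 177, 179 and 179 CPM across AFMC and Atf3, an injury-induced factor, at 171, 203 and 229 CPM across Hollow and 238, 163 and 115 CPM across AFMC. Both were chosen after their values were seen, and their groups overlapped.

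**Figure D3:**
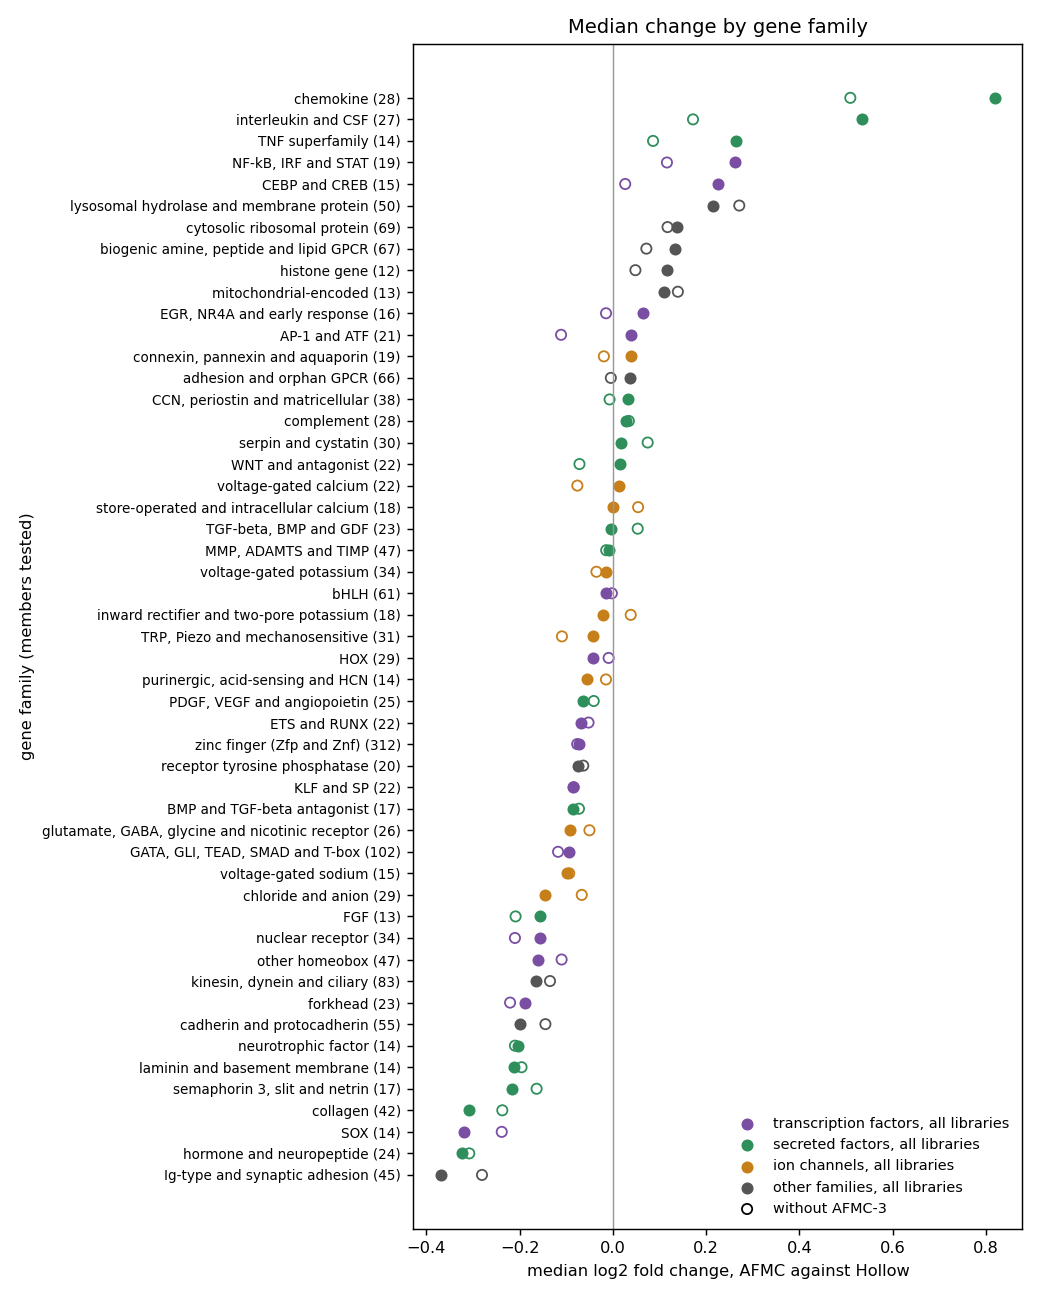
Median log2 fold change of AFMC against Hollow (horizontal axis) for gene families with at least 12 members tested (vertical axis, with the number tested). Values are over all libraries (filled) and without AFMC-3 (open). Olfactory, taste and vomeronasal receptors and smaller families are not shown. Among the smaller families, neuregulin and EGF (7 tested) stood at -0.44, or -0.58 without AFMC-3. Chemokines stand at 0.82 with AFMC-3 and 0.51 without it, while the SOX, collagen and Ig-type adhesion families lie at or below -0.31 with all libraries.

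Secreted factors divided by kind. Of 436 tested, 56 were higher, or 12.8%, and 62 lower, or 14.2%, at an unadjusted p under 0.05, and DESeq2 called 31 higher and 22 lower. Without AFMC-3, 41 were higher and 37 lower. Chemokines, which draw in leukocytes, were the family with the highest median, 0.82, with 24 of 28 members positive. By unadjusted p, 13 passed 0.05 on the higher side and 1 on the lower, and without AFMC-3 the counts were also 13 and 1 and the median 0.51. With the correction for length 11 were higher and 1 lower, and the median was 0.66. Pf4, a chemokine of platelets and macrophages, was at 72.7, 81.5 and 88.1 CPM across Hollow and 123, 144 and 179 CPM across AFMC (0.88 ± 0.14, edgeR adjusted p 0.102, DESeq2 3.6e-06). Its lowest AFMC library lay above its highest Hollow library. Cxcl3, which attracts neutrophils, was at 28.01, 17.9 and 12.7 CPM across Hollow and 37.3, 56.7 and 75.5 CPM across AFMC (1.53 ± 0.30), and Ccl3, a macrophage chemokine, at 21.7, 27.1 and 24.7 CPM across Hollow and 55.2, 49.2 and 127 CPM across AFMC (1.65 ± 0.33). AFMC-3 was highest for each of these, and without it the values were 0.72, 1.26 and 1.09.

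Cxcl1, Cxcl2 and Cxcl6, further ligands of the neutrophil receptor chosen after their values were seen, varied widely among the AFMC libraries. Cxcl1 was at 5.25, 2.67 and 2.33 CPM across Hollow and 5.53, 11.7 and 28.7 CPM across AFMC. Cxcl2 was at 18.1, 7.65 and 5.49 CPM across Hollow and 23.8, 59.3 and 116 CPM across AFMC. Cxcl6 was at 11.5, 8.51 and 13.5 CPM across Hollow and 21.1, 48.8 and 248 CPM across AFMC. Their log2 fold changes were 2.16 ± 0.56, 2.67 ± 0.63 and 3.24 ± 0.79, and 1.32, 1.99 and 1.64 without AFMC-3. All 3 were lowest in AFMC-1 and highest in AFMC-3 of the AFMC libraries, as were the summed neutrophil markers given above, whose part in these values was not tested. Ccl2, the main monocyte chemokine, also chosen after its values were seen, was at 46.02, 72.9 and 47.9 CPM across Hollow and 62.4, 61.9 and 64.3 CPM across AFMC, with overlapping groups.

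The promoter of Cxcl1 is shown because chemokine genes are known targets of NF-kB. Promoters were taken from RefSeq (GRCr8) as 300 bases, from 250 before to 50 after the start of the gene, and 10931 tested genes had one matched by symbol. The kappa-B motif, GGGA then any base then TTTCC, searched on both strands, was found in 2 of 21 chemokine promoters (Cxcl1 and Cxcl6), in 1 of 18 interleukin and colony-stimulating factor promoters (Il6) and in 0.467% of all promoters. Cxcl1 and Cxcl6 are described above. Il6, chosen after its values were seen, had overlapping groups (0.53 ± 0.59, and -0.59 without AFMC-3). A match describes letters and shows no binding. The sequence below is from chr14:17479272-17479571 on the minus strand, written on the strand of the gene, with the motif in capitals 84 bases before the start.
Cxcl1: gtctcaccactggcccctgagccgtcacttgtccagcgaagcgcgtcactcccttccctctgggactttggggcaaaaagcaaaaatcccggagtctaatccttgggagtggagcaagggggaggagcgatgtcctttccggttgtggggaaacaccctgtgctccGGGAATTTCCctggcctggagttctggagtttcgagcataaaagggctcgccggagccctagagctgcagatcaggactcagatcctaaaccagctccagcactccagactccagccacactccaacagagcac

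Interleukins and colony-stimulating factors were mostly positive in log2 fold change, with AFMC-3 far above the other libraries for several. Of 27 tested, 22 were positive, 9 were higher and 1 lower at an unadjusted p under 0.05, and the median was 0.53, or 0.17 without AFMC-3. Il1b, the main cytokine of the inflammasome, was at 27.2, 20.4 and 20.6 CPM across Hollow and 45.8, 73.6 and 560.03 CPM across AFMC, with log2 fold changes of 3.31 ± 0.84 and, without AFMC-3, 1.39. The decoy receptor Il1r2 was at 7.29, 6.47 and 6.105 CPM across Hollow and 9.09, 19.1 and 90.6 CPM across AFMC (2.58 ± 0.71, and 1.08 without AFMC-3). Tnf, chosen after its values were seen, was at 4.67, 6.901 and 4.13 CPM across Hollow and 10.4, 9.62 and 38.5 CPM across AFMC (1.90 ± 0.53). For all 3 genes AFMC-1 and AFMC-2 were already above every Hollow library. Il10, an anti-inflammatory cytokine also chosen after its values were seen, was at 7.11, 2.57 and 3.03 CPM across Hollow and 3.24, 7.08 and 9.89 CPM across AFMC, and its groups overlapped.

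Among TNF superfamily ligands, 1 pair went opposite ways. Tnfsf11, which encodes RANKL, the ligand that drives osteoclast formation, was at 7.87, 5.72 and 7.598 CPM across Hollow and 12.6, 9.68 and 16.5 CPM across AFMC (0.87 ± 0.21, edgeR adjusted p 0.115, DESeq2 0.009). Tnfsf18, the ligand of the T cell receptor GITR, was at 10.2, 11.9 and 6.02 CPM across Hollow and 4.35, 4.54 and 2.39 CPM across AFMC (-1.31 ± 0.34). Neither gene's groups overlapped.

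Matrix proteases differed strongly for single members, while the family of 47 had 9 higher, 7 lower and a median of -0.01, with 5 higher and 5 lower without AFMC-3. Mmp3, stromelysin 1, which cleaves many matrix proteins, was at 25.7, 52.5 and 40.8 CPM across Hollow and 155, 90.8 and 233 CPM across AFMC (2.01 ± 0.48, edgeR adjusted p 0.115, DESeq2 0.012). Its lowest AFMC library was above its highest Hollow library, and the value without AFMC-3 was 1.64. Mmp9 and Mmp13, a gelatinase and a collagenase chosen after their values were seen, were at 203, 229 and 378 CPM across Hollow and 728, 567 and 351 CPM across AFMC for Mmp9 and 134, 89.4 and 197 CPM across Hollow and 312, 184 and 574 CPM across AFMC for Mmp13. Both overlapped between the groups. The AP-1 motif TGACTCA, on either strand, was in 5 of 36 promoters of this family (Mmp3, Mmp7, Mmp10, Mmp12 and Mmp13) and in 3.55% of all promoters. Beside Mmp3 and Mmp13 above, Mmp10 and Mmp12 overlapped between the groups (0.10 ± 0.29 and -0.09 ± 0.39). These too were chosen after their values were seen. The Mmp3 promoter, chr8:12925031-12925330 on the plus strand, is shown because its gene had the smallest p of the family. The capitals mark the motif, read here as its reverse complement TGAGTCA, 71 bases before the start.
Mmp3: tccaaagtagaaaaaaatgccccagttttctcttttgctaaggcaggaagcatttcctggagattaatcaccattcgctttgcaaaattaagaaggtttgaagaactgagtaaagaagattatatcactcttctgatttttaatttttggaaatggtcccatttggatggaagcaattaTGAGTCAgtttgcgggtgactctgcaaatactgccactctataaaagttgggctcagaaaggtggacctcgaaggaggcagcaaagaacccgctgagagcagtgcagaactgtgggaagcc

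Some trophic and guidance genes of nerve were among the lower secreted genes. Bdnf, a neurotrophin, was at 5.96, 5.08 and 4.92 CPM across Hollow and 3.003, 3.298 and 2.88 CPM across AFMC (-0.80 ± 0.15, edgeR adjusted p 0.103, DESeq2 0.0061). Its libraries were tight, with AFMC no higher than 3.30 CPM and Hollow no lower than 4.92 CPM. Gdnf, a trophic factor released by repair Schwann cells, was chosen after its values were seen and was at 2.13, 1.28 and 1.71 CPM across Hollow and 0.948, 0.973 and 0.298 CPM across AFMC (-1.20 ± 0.49). Midkine (Mdk), a heparin-binding growth factor, went the other way, at 27.6, 21.2 and 26.4 CPM across Hollow and 36.2, 33.7 and 35.4 CPM across AFMC (0.49 ± 0.11, edgeR adjusted p 0.115). In the neurotrophic family 10 of 14 members were negative, with 3 lower and 1 higher at an unadjusted p under 0.05. Without AFMC-3 the counts were 1 and 1, and DESeq2 with all libraries called 1 lower and 1 higher. Sema3c, a secreted semaphorin that steers axons and vessels, was at 189, 221 and 209 CPM across Hollow and 133, 153 and 115 CPM across AFMC (-0.63 ± 0.13), and Sema3e at 24.3, 17.1 and 22.8 CPM across Hollow and 10.5, 13.4 and 10.04 CPM across AFMC (-0.93 ± 0.19). Of 17 semaphorin 3, slit and netrin genes, 5 were lower and 1 higher at an unadjusted p under 0.05, and 3 and 1 without AFMC-3. DESeq2 with all libraries called 3 lower and 1 higher. In the FGF family 11 of 13 were negative, with 2 lower and 0 higher at an unadjusted p under 0.05, and 1 and 0 without AFMC-3. DESeq2 called 0 of them in either direction. Wnt5b, a noncanonical Wnt ligand, was higher, at 4.76, 3.64 and 4.22 CPM across Hollow and 7.51, 7.08 and 7.01 CPM across AFMC (0.77 ± 0.16), while the Wnt antagonist Sfrp1 was at 281, 329 and 293 CPM across Hollow and 207, 242 and 204 CPM across AFMC (-0.47 ± 0.10).

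Of 24 hormone and neuropeptide genes 19 were negative, with 4 lower and 2 higher at an unadjusted p under 0.05. Stc2, stanniocalcin 2, was at 53.04, 53.1 and 33.2 CPM across Hollow and 19.2, 24.98 and 13.6 CPM across AFMC (-1.27 ± 0.24, edgeR adjusted p 0.103). Adiponectin (Adipoq), from fat cells and one of the fat cell markers above, was at 20.01, 15.6 and 19.9 CPM across Hollow and 9.84, 6.98 and 4.12 CPM across AFMC (-1.40 ± 0.29). Bmp3, a BMP that opposes bone formation, was at 6.22, 5.67 and 4.44 CPM across Hollow and 2.29, 2.76 and 1.24 CPM across AFMC (-1.37 ± 0.31), and Ltbp2, a microfibril protein, at 98.6, 118 and 112 CPM across Hollow and 57.2, 78.8 and 42.4 CPM across AFMC (-0.88 ± 0.20). Collagens had 35 of 42 members negative, with 10 lower, or 23.8%, and 0 higher at an unadjusted p under 0.05, and 3 lower without AFMC-3. In 5, or 11.9%, all AFMC libraries lay below Hollow, near the 12.3% of all genes. Their median was -0.31, and -0.18 with the correction for length, in a family with a median length of 6157 bp. Col22a1, a collagen of tissue junctions, was at 9.74, 7.97 and 7.69 CPM across Hollow and 4.703, 5.03 and 3.38 CPM across AFMC (-0.95 ± 0.18), while Col1a1, the main fibrillar collagen, was chosen after its values were seen and was at 20939, 18951 and 17873 CPM across Hollow and 18908, 24826 and 28689 CPM across AFMC, with AFMC-2 and AFMC-3 above Hollow and AFMC-1 within it. Slpi, an inhibitor of neutrophil proteases, was at 31.8, 42.9 and 39.4 CPM across Hollow and 81.9, 81.6 and 279 CPM across AFMC (1.96 ± 0.51, and 1.11 without AFMC-3).

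**Figure D4:**
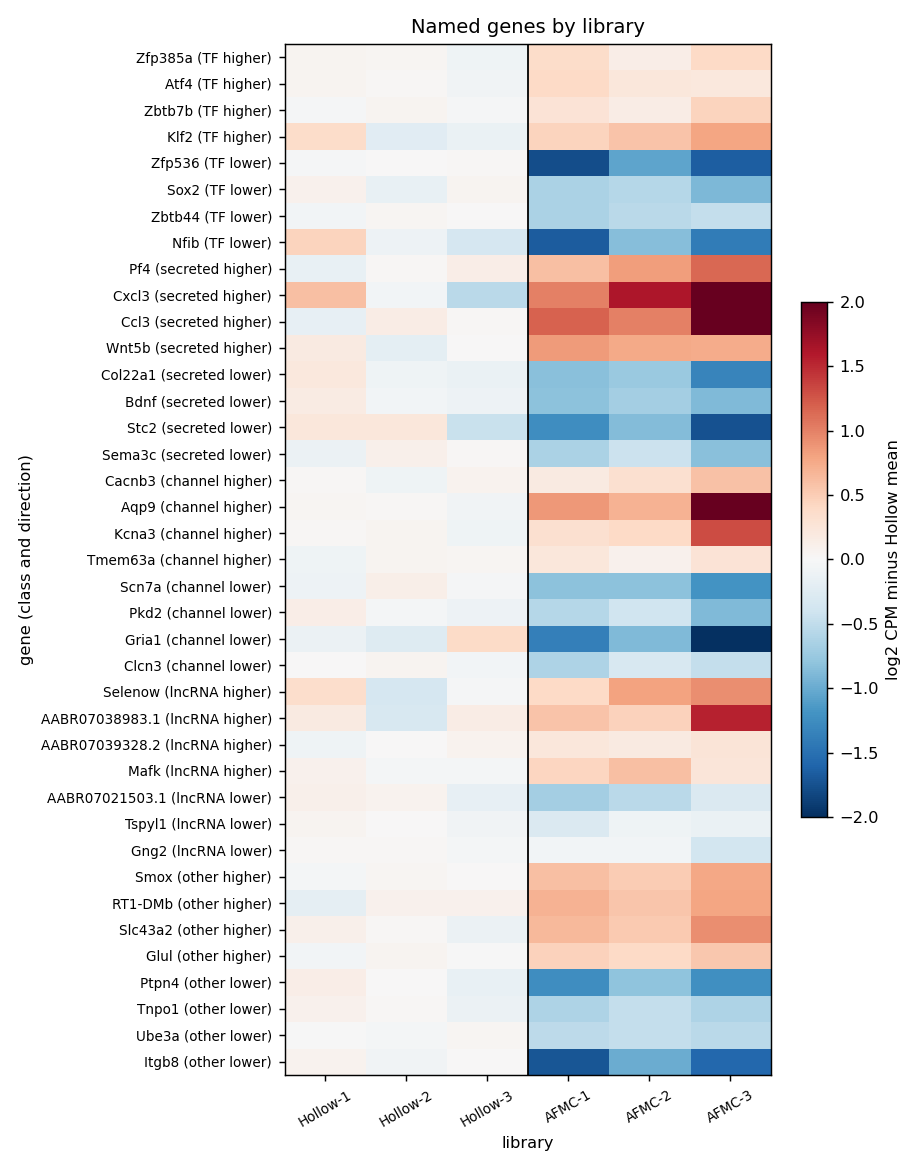
Log2 CPM minus the Hollow mean (color, capped at 2 in either direction) for the genes named by class and direction, in rows, across the 6 libraries, in columns, with the groups divided by a line. The genes were picked for groups that do not overlap, so the lower genes lie below 0 in all 3 AFMC columns. Several of the secreted and channel genes on the higher side, such as Cxcl3, Ccl3 and Aqp9, are darkest in AFMC-3.

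More ion channels were lower than higher, while the median of the class was -0.04, and 0.0015 with the correction for length. Of 234 tested, 38, or 16.2%, were lower and 11, or 4.70%, higher at an unadjusted p under 0.05, and DESeq2 called 12 lower, or 5.13%, and 2 higher. With the correction for length 29 were lower and 19 higher, and without AFMC-3 24 were lower and 6 higher. Scn7a, the sodium-sensing channel Nax found in nonmyelinating Schwann cells, was at 94.9, 109.6 and 100.001 CPM across Hollow and 57.5, 57.6 and 44.4 CPM across AFMC, a log2 fold change of -0.93 ± 0.11 (edgeR adjusted p 0.102, DESeq2 3.2e-09). The highest AFMC library, at 57.6 CPM, was far under the lowest Hollow library, at 94.9 CPM. Scn3b, an auxiliary sodium channel subunit, was at 10.3, 6.79 and 7.42 CPM across Hollow and 3.75, 5.35 and 3.98 CPM across AFMC (-0.91 ± 0.24). The polycystin channel Pkd2 was at 127, 113 and 107 CPM across Hollow and 77.4, 87.8 and 62.5 CPM across AFMC (-0.61 ± 0.13). The endosomal chloride-proton exchanger Clcn3 was at 30.6, 31.7 and 29.5 CPM across Hollow and 19.9, 24.6 and 22.1 CPM across AFMC (-0.47 ± 0.10). The AMPA receptor subunit Gria1 was at 3.82, 3.48 and 5.45 CPM across Hollow and 1.62, 2.27 and 0.944 CPM across AFMC (-1.40 ± 0.30), and the kainate receptor subunit Grik2 at 7.11, 14.9 and 9.53 CPM across Hollow and 5.61, 5.95 and 3.28 CPM across AFMC (-1.08 ± 0.31). Kcna2, a potassium channel of axons next to the node, was at 23.8, 27.98 and 22.003 CPM across Hollow and 14.6, 21.1 and 14.7 CPM across AFMC (-0.55 ± 0.15). Without AFMC-3 the values of Scn7a, Pkd2, Clcn3 and Gria1 were -0.82, -0.48, -0.46 and -1.14.

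Fewer channels were higher. Kcna3, the Kv1.3 potassium channel of T cells and microglia, was at 20.3, 20.6 and 18.7 CPM across Hollow and 24.7, 26.1 and 49.1 CPM across AFMC (0.74 ± 0.25, and 0.35 without AFMC-3). Aqp9, a channel for water and glycerol in leukocytes and liver, was at 0.756, 0.749 and 0.703 CPM across Hollow and 1.34, 1.19 and 3.88 CPM across AFMC (1.53 ± 0.46, and 0.78 without AFMC-3). Cacnb3, a calcium channel subunit, was at 30.1, 27.9 and 31.1 CPM across Hollow and 33.6, 36.8 and 44.3 CPM across AFMC (0.36 ± 0.11), and Tmem63a, a mechanosensitive channel, at 43.5, 47.6 and 47.2 CPM across Hollow and 54.02, 48.99 and 55.6 CPM across AFMC (0.20 ± 0.07). AFMC-3 was the highest library for each of the 4. The stretch-gated channel Piezo1 was at 228, 209 and 192 CPM across Hollow and 221, 223 and 222 CPM across AFMC and Trpv4, which also answers to osmotic and mechanical stimuli, at 8.94, 7.49 and 8.08 CPM across Hollow and 9.76, 9.84 and 12.4 CPM across AFMC. Piezo2, the touch channel, was at 57.4, 43.8 and 42.5 CPM across Hollow and 28.5, 51.6 and 33.2 CPM across AFMC. These 3 were chosen after their values were seen. The groups overlapped for Piezo1 and Piezo2, and Trpv4 was higher by 0.38 ± 0.15 (edgeR adjusted p 0.212).

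Long noncoding RNAs showed no shift as a class. Of 2020 deposited lncRNA genes, 869 were tested, with 53, or 6.10%, higher and 59, or 6.79%, lower at an unadjusted p under 0.05, both under the share of all genes, and a median of 0.01. DESeq2 called 7 higher and 23 lower. Symbols were listed for 56 of them, 20 of these clone-based. Among those without a symbol, the 2 of smallest p in each direction are given, of those whose groups did not overlap and whose higher group mean reached 1 CPM. ENSRNOG00000063706 (chromosome 2, 54159664 to 54165214, minus strand) was at 43.3, 38.03 and 41.6 CPM across Hollow and 14.6, 25.95 and 18.1 CPM across AFMC, a log2 fold change of -1.07 ± 0.18. ENSRNOG00000063932 (chromosome 4, 30642554 to 30645588, plus strand) was at 16.7, 18.4 and 14.98 CPM across Hollow and 7.63, 11.4 and 8.35 CPM across AFMC (-0.87 ± 0.15). The gene nearest to the second is Cdk6, a kinase of the cell cycle, 872 bp away on the opposite strand, which was at 9.03, 10.004 and 8.48 CPM across Hollow and 5.61, 7.08 and 4.27 CPM across AFMC (-0.70 ± 0.18).

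On the higher side ENSRNOG00000066466 was at 8.71, 9.201 and 11.99 CPM across Hollow and 13.4, 14.5 and 15.4 CPM across AFMC (0.54 ± 0.14) and ENSRNOG00000070418 at 3.96, 1.87 and 3.91 CPM across Hollow and 5.77, 7.62 and 20.1 CPM across AFMC (1.77 ± 0.49). The second was led by AFMC-3. Of the clone-named genes, AABR07038983.1 was at 13.3, 9.42 and 13.04 CPM across Hollow and 17.6, 16.2 and 34.1 CPM across AFMC (0.92 ± 0.29) and AABR07039328.2 at 59.8, 63.6 and 66.3 CPM across Hollow and 73.5, 71.4 and 75.5 CPM across AFMC (0.22 ± 0.07). AABR07021503.1, on the lower side, was at 1.69, 1.66 and 1.41 CPM across Hollow and 0.988, 1.08 and 1.29 CPM across AFMC (-0.50 ± 0.23). The table also gives the lncRNA biotype to rows with symbols of protein genes. Among these, the row Selenow (chromosome 1, 76598779 to 76604724, minus strand) was at 8.003, 4.98 and 6.15 CPM across Hollow and 8.26, 10.98 and 11.9 CPM across AFMC, Mafk (chromosome 12, 14832249 to 14858888, minus strand) at 4.14, 3.798 and 3.82 CPM across Hollow and 5.296, 5.95 and 4.62 CPM across AFMC, Tspyl1 at 32.5, 31.5 and 29.7 CPM across Hollow and 25.6, 29.5 and 28.6 CPM across AFMC and Gng2 at 117, 117 and 112 CPM across Hollow and 111, 111 and 89.4 CPM across AFMC. The Gng2 value of -0.15 turned to 0.06 with the correction for length.

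Each tested lncRNA was set beside its nearest protein-coding gene, which was itself tested for 800. The signs of the fold changes were the same in 440 pairs, or 55.0%. Among lncRNAs lying above Hollow in all AFMC libraries the count was 33 of 61, or 54.1%, and among those lying below it was 46 of 64, or 71.9%. The pairs share libraries and length composition, and no test was made.

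Lysosomal genes, for the hydrolases and membrane proteins that break down engulfed material, were mostly positive with and without AFMC-3. Of 50 tested, 43 were positive, with a median of 0.21, and 0.27 without AFMC-3. At an unadjusted p under 0.05, 15 lay higher and 0 lower, and without AFMC-3 23 were higher. DESeq2 called 7. Gaa, acid alpha-glucosidase, was at 127, 112 and 124 CPM across Hollow and 175, 162 and 176 CPM across AFMC (0.50 ± 0.09, edgeR adjusted p 0.102, DESeq2 0.00022). Neu1, lysosomal sialidase, was at 34.2, 41.8 and 46.2 CPM across Hollow and 57.6, 55.7 and 59.7 CPM across AFMC (0.50 ± 0.10, edgeR adjusted p 0.111). In both, the 3 AFMC libraries lay close together and clear of Hollow. Ctsd, cathepsin D, was chosen after its values were seen and was at 1203, 1283 and 1791 CPM across Hollow and 2586, 1694 and 1436 CPM across AFMC, with AFMC-1 highest and the groups overlapping. Tfeb, the factor known to drive lysosomal genes and also chosen after its values were seen, was at 37.1, 44.9 and 48.8 CPM across Hollow and 50.9, 38.9 and 42.4 CPM across AFMC (0.01 ± 0.13), also with overlap.

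The motif TCACGTG, the core of the element that Tfeb binds, was searched on both strands. It was in 5 of 35 lysosomal promoters, or 14.3% (Atp6v0d1, Ctsd, Gaa, Glb1 and Lamp1), and in 5.32% of all promoters. Gaa and Ctsd are described above. Glb1 and Lamp1 overlapped between the groups (0.18 ± 0.13 and 0.17 ± 0.11), and Atp6v0d1 did not (0.22 ± 0.08). Glb1, Lamp1 and Atp6v0d1 were chosen after their values were seen. The promoter of Gaa, chr10:105028105-105028404 on the plus strand, is shown because its gene had the smallest p of the lysosomal genes. Capitals mark the motif, read as its reverse complement CACGTGA, 67 bases before the start.
Gaa: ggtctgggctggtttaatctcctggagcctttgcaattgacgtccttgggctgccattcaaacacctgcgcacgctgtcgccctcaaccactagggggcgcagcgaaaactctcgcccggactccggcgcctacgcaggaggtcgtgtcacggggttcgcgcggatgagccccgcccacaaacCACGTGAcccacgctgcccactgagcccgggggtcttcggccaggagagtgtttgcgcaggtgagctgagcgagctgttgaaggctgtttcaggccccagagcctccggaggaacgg

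Some genes of osteoclasts and of macrophages that merge around foreign material followed another order of libraries. They were picked with their values known, so the order describes these genes and not the cell types. Acp5, tartrate-resistant acid phosphatase, was at 101, 92.5 and 169 CPM across Hollow and 445, 215 and 135 CPM across AFMC (1.13 ± 0.39, and 1.45 without AFMC-3). Ctsk, cathepsin K, was at 971, 1357 and 1400.3 CPM across Hollow and 1879, 1826 and 863 CPM across AFMC, and Spp1, osteopontin, at 4153, 7429.5 and 5119.5 CPM across Hollow and 13272, 5737 and 3035 CPM across AFMC. Gpnmb, a glycoprotein of lipid-laden macrophages, was at 4378, 4584 and 5734 CPM across Hollow and 7121, 5254 and 3141 CPM across AFMC. In each of these genes, chosen after their values were seen, AFMC-1 was the highest library of the 6 and AFMC-3 was the lowest AFMC library, whereas Pf4, Cxcl3, Ccl3, Cxcl1, Cxcl2 and Cxcl6 were highest in AFMC-3. The groups overlapped for all 4.

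**Figure D5:**
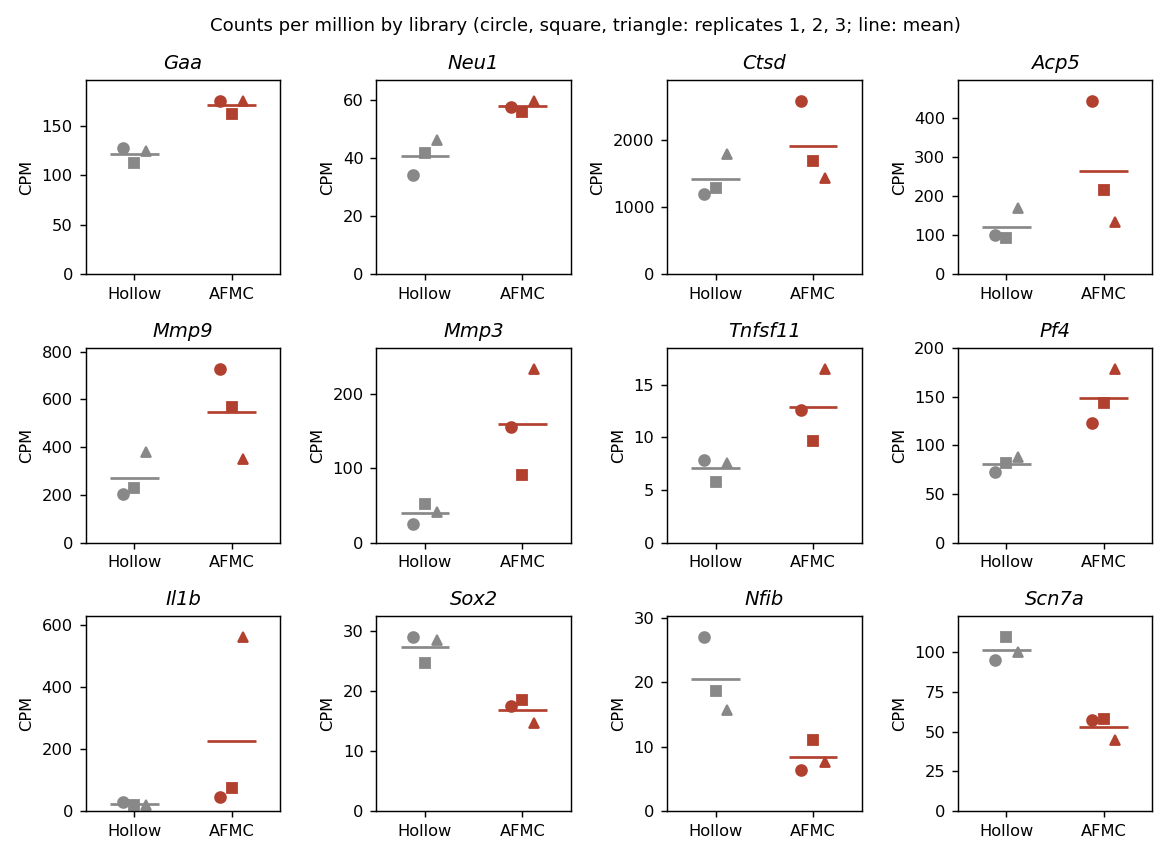
CPM (vertical axis, from 0) of 12 genes in each Hollow (gray) and AFMC (red) library, with circles, squares and triangles for replicates 1, 2 and 3 and a line at the group mean. Gaa, Neu1, Sox2 and Scn7a have tight, separate groups, Acp5 and Mmp9 are highest in AFMC-1, and Il1b is at 560 CPM in AFMC-3 alone.

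Outside these classes the genes with the smallest p were of metabolism and antigen presentation on the higher side. Smox, spermine oxidase, which turns spermine into spermidine, was at 44.6, 47.2 and 45.9 CPM across Hollow and 69.8, 65.3 and 78.7 CPM across AFMC (0.63 ± 0.08, edgeR adjusted p 0.102, DESeq2 4.3e-07). Glul, glutamine synthetase, was at 597, 640.2 and 613 CPM across Hollow and 852, 812 and 893 CPM across AFMC (0.47 ± 0.08, DESeq2 adjusted p 3.2e-09). The amino acid transporter Slc43a2 was at 96.1, 90.6 and 82.3 CPM across Hollow and 141, 129 and 170.3 CPM across AFMC (0.71 ± 0.11). RT1-DMb, which loads peptides onto MHC class II, was at 96.3, 115 and 116 CPM across Hollow and 176, 160.3 and 187 CPM across AFMC (0.68 ± 0.11). All of these were picked for groups that do not overlap, and without AFMC-3 they stood at 0.56, 0.43, 0.59 and 0.62. Nos2, inducible nitric oxide synthase, chosen after its values were seen, was at 71.6, 69.7 and 29.8 CPM across Hollow and 134, 180.2 and 731 CPM across AFMC and Acod1, which makes itaconate, at 7.603, 19.2 and 6.76 CPM across Hollow and 21.5, 23.1 and 296 CPM across AFMC. Hcar2, a receptor for butyrate and niacin on myeloid cells, was at 15.4, 19.8 and 10.8 CPM across Hollow and 43.9, 52.8 and 284 CPM across AFMC. AFMC-3 was highest in these 3 by a wide margin, and AFMC-1 and AFMC-2 also lay above every Hollow library.

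On the lower side Itgb8, an integrin subunit that activates TGF-beta, was at 199.6, 181 and 190.5 CPM across Hollow and 58.01, 95.5 and 64.4 CPM across AFMC (-1.39 ± 0.20, edgeR adjusted p 0.102, DESeq2 1.7e-08). The tyrosine phosphatase Ptpn4 was at 19.9, 18.3 and 16.3 CPM across Hollow and 7.67, 10.4 and 7.75 CPM across AFMC (-1.08 ± 0.13). The nuclear import receptor Tnpo1 was at 109, 104 and 94.1 CPM across Hollow and 66.6, 73.5 and 66.7 CPM across AFMC (-0.57 ± 0.08) and the ubiquitin ligase Ube3a at 43.4, 42.4 and 44.9 CPM across Hollow and 30.4, 31.2 and 29.97 CPM across AFMC (-0.51 ± 0.07). These genes, too, were picked for groups that do not overlap. Ube3a varied by little within each group.

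Most cell adhesion genes were negative in log2 fold change. Of 45 Ig-type and synaptic adhesion genes 36 were negative, with 13, or 28.9%, lower and 0 higher at an unadjusted p under 0.05 and a median of -0.37, or -0.26 with the correction for length. Chl1, a neural adhesion protein of Schwann cells and axons, was at 57.1, 48.9 and 48.5 CPM across Hollow and 21.02, 34.01 and 22.02 CPM across AFMC (-1.01 ± 0.18, edgeR adjusted p 0.102), and Cadm2 at 7.29, 5.14 and 4.22 CPM across Hollow and 1.66, 2.92 and 1.09 CPM across AFMC (-1.56 ± 0.36). Cadherins and protocadherins had 12 of 55 lower and 0 higher. Cdh19, a Schwann cell cadherin and one of the markers above, was at 37.7, 30.01 and 37.4 CPM across Hollow and 16.4, 23.6 and 13.96 CPM across AFMC (-0.96 ± 0.19), and Pcdh20 at 30.6, 23.4 and 28.2 CPM across Hollow and 11.5, 17.8 and 13.9 CPM across AFMC (-0.93 ± 0.17). Of 66 adhesion and orphan G protein-coupled receptors 35 were positive, with 11 higher and 6 lower at an unadjusted p under 0.05. One of the lower members, Adgrg6, the receptor needed for Schwann cells to start myelin, was at 47.7, 54.2 and 49.3 CPM across Hollow and 38.7, 36.7 and 29.4 CPM across AFMC (-0.53 ± 0.12). Of 67 receptors for amines, peptides and lipids 43 were positive, with 13 higher and 9 lower. Among the lower ones Cysltr1, a leukotriene receptor, was at 20.1, 16.6 and 20.2 CPM across Hollow and 7.43, 12.2 and 7.06 CPM across AFMC (-1.10 ± 0.19). Kinesin, dynein and ciliary genes had 18 of 83 lower and 3 higher, among them Kif21a at 25.6, 27.1 and 26.6 CPM across Hollow and 15.9, 18.3 and 14.4 CPM across AFMC (-0.70 ± 0.15) and Ift80 at 15.4, 16.4 and 16.4 CPM across Hollow and 10.7, 12.7 and 10.98 CPM across AFMC (-0.49 ± 0.11).

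Ribosomal protein genes leaned higher before the correction for length but hardly after it. Of 69 tested, 65 were positive with a median of 0.14. Their median length was 1041 bp and the median with the correction for length was 0.02. By unadjusted p under 0.05, 7 lay higher, and 3 after the correction.

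Genes that set 1 library apart from the other 5 were counted with a gap of at least 1 on the log2 scale to the nearest of them. AFMC-3 was high for 200 such genes and low for 38, and the other libraries were high for 0 to 4 and low for 1 to 12. Lcn2, lipocalin 2 of neutrophils, was at 10.05, 4.81 and 3.82 CPM across Hollow and 4.11, 9.19 and 195 CPM across AFMC. Mzb1, a plasma cell protein, was at 0.711, 2.14 and 4.04 CPM across Hollow and 2.69, 9.14 and 156 CPM across AFMC, and the clone-named gene AABR07060872.1 at 72.9, 141 and 219 CPM across Hollow and 194, 343 and 6295 CPM across AFMC. A protein-coding gene with no symbol on chromosome 6 (136944641 to 136945869, minus strand), chosen after its values were seen, was at 0, 0.107 and 0 CPM across Hollow and 0.553, 141 and 774 CPM across AFMC, and no fold is given because Hollow lay at or near 0. Without AFMC-3 the log2 fold change of Lcn2 was 0.08, against 3.47 with it. Hollow-1 was high for Fam111a, at 133, 16.3 and 11.5 CPM across Hollow and 12.3, 9.68 and 10.5 CPM across AFMC, and for the muscle genes Trdn and Nrap, at 24.5, 2.3003 and 1.45 CPM across Hollow and 11.2, 2.16 and 6.36 CPM across AFMC for Trdn and 34.3, 1.82 and 1.89 CPM across Hollow and 15.7, 3.19 and 9.99 CPM across AFMC for Nrap. In AFMC-1 the histone gene H3f3c was at 8.58, 9.201 and 9.93 CPM across Hollow and 46.1, 9.19 and 11.3 CPM across AFMC. Rpl35al1, named as a copy of Rpl35a and uncertain because reads could be split between copies, was at 1.96, 1.28 and 2.59 CPM across Hollow and 40.8, 19.2 and 2.09 CPM across AFMC.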

How the data were processed

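RNA from tissue inside the conduits was sequenced as poly(A), strand-specific (dUTP) libraries with paired 150-base reads, per the labels' protocols. The deposited table gives whole-number counts and FPKM per gene, per the file headers. The aligner, counter, annotation release and genome build were not given in the sources used here, and gene spans are printed as the table lists them. Poly(A) capture leaves RNAs without a tail largely unmeasured. No molecular identifiers are described, so each count is a read, not a molecule.

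The count table was fitted with edgeR 4.0.16 (R 4.3.3). Of 21486 genes filterByExpr kept 15659. A quasi-likelihood model with TMM factors and a term per group was fitted to all 9 libraries (common biological coefficient of variation 0.197), two-sided, with Benjamini-Hochberg adjustment over all 15659 genes. CPM values use the TMM-scaled totals. The standard error is the log2 fold change over the root of the F statistic. DESeq2 1.42.0, limma 3.58.1 on log2(FPKM + 1) and log2(FPKM + 0.1) of the authors' deposited FPKM, other factors and filters, a minimum log2 fold change of 1, the replicate number as a block, an offset following gene length, and leaving out each library were alternatives. The steps were tested on simulated counts. Gene families follow symbols and were restricted to protein-coding rows. The comparison, lists and tests were chosen with earlier results of these data known.

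Genes are named by class and direction as the 4 of smallest p that have a symbol, no overlap between groups and 2 CPM or more on average (1 CPM for lncRNA) in whichever group was higher. The same rule took 4 genes per direction from all other genes. Of each family, the 2 members of smallest p with a mean of at least 1 CPM could be named, and some families are given by counts alone. Each library gave its 3 most distant genes per direction with a mean of at least 5 CPM. Other names are marked as chosen after their values were seen. One gene that the naming rule picks is not reported here.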

Additional observations from a re-analysis of the deposited data

How the results depend on the processing

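The counts of genes depended on the test and on single libraries. DESeq2 called 409 genes higher and 612 lower where edgeR called none. DESeq2 without AFMC-3, an alternative chosen after seeing the data, called 113 higher and 241 lower, with 850 higher at an unadjusted p under 0.05. Leaving out each library in turn gave 0 to 217 genes called higher and 0 to 677 called lower by edgeR, the highest counts without AFMC-2, and 916 to 1755 higher and 1161 to 2233 lower at an unadjusted p under 0.05. Limma on log2(FPKM + 0.1) called 1 gene higher, and at an unadjusted p under 0.05 it gave 808 higher, with 792 on log2(FPKM + 1). The length offset without AFMC-3 gave 1130 lower at an unadjusted p under 0.05. With the replicate block 1 gene was called higher and 0 lower, with 1093 higher and 1573 lower at an unadjusted p under 0.05, and the replicate block with length offset also called 1. Same-numbered libraries of AFMC and Hollow correlated by 0.0802, -0.00373 and 0.0770 in their deviations from the group means, so the numbers were not taken to pair libraries. Of 130 named genes under the alternatives, 162 of 2339 values passed an adjusted p under 0.05, 93 by DESeq2 and 69 without AFMC-2. Signs reversed in 7: Gng2 at 0.0638 with the length offset, 0.0620 with block and offset, and 0.146 with the offset without AFMC-3, Itpr2 at 0.00084 and 0.0026 with the offset without and with the block, H2az1 at -0.0604 with the offset without AFMC-3, and Mt-nd3 at -0.00902 with block and offset. The cause was not tested. Of 1062 family medians under the alternatives, 93 moved by more than the spread between AFMC libraries. The median log2 fold change of all genes was 0.0127 and lay between -0.0442 and 0.0226 under the alternatives. Values near 1 CPM rest on few reads, and differences there were often not detectable at this depth.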

Other observations

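RT1-N2, RT1-CE11 and RT1-CE16, of the rat RT1 (MHC) complex, were named by the rule for genes that lie far off in 1 library. Their spread between single libraries is therefore what picked them and does not describe other MHC genes. RT1-N2 was at 5.07, 20.7 and 25.9 CPM across Hollow and 24.2, 0 and 43.4 CPM across AFMC, RT1-CE11 at 26.9, 52.8 and 26.9 CPM across Hollow and 72.004, 4.704 and 116 CPM across AFMC and RT1-CE16 at 72.8, 21.9 and 99.7 CPM across Hollow and 64.2, 201 and 44.9 CPM across AFMC. These genes have near-identical copies, so counts split between them are uncertain. The interferon-induced genes Ifit1, Rsad2 and Ifit3, named by the same rule, also varied widely within each group. Ifit1 was at 24.3, 14.8 and 26.8 CPM across Hollow and 34.8, 3.35 and 93.5 CPM across AFMC and Rsad2 at 20.5, 3.74 and 15.9 CPM across Hollow and 19.9, 13.1 and 59.6 CPM across AFMC, both with overlapping groups. Ifit3 was at 54.6, 9.63 and 38.8 CPM across Hollow and 81.01, 67.8 and 393 CPM across AFMC, with every AFMC library above Hollow. Ifit1bl, at 17.1, 6.26 and 7.55 CPM across Hollow and 19.05, 28.98 and 154 CPM across AFMC, and Oas1k, at 2.71, 0.749 and 1.14 CPM across Hollow and 3.04, 4.06 and 21.3 CPM across AFMC, were chosen after their values were seen and did not overlap either. AFMC-3 was far the highest in these 3. The genes named next were low in Hollow-1 alone, with RGD1359290 at 5.56, 166 and 179 CPM across Hollow and 169.7, 158 and 176 CPM across AFMC, AABR07030771.1 at 0, 30.4 and 34.5 CPM across Hollow and 45.4, 21.5 and 34.8 CPM across AFMC and AABR07030791.1 at 0.178, 14.6 and 23.4 CPM across Hollow and 32.3, 10.5 and 13.1 CPM across AFMC.

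Some genes of low level lay over 2-fold from the Hollow mean of log2 CPM in every AFMC library and were chosen after their values were seen. Baiap2l2 was at 1.47, 2.19 and 1.89 CPM across Hollow and 4.78, 4.16 and 5.57 CPM across AFMC (1.39 ± 0.23), Shisal1 at 2.13, 1.498 and 1.84 CPM across Hollow and 3.75, 4.43 and 3.83 CPM across AFMC (1.13 ± 0.26) and the carbonic anhydrase Ca4 at 3.87, 3.58 and 2.06 CPM across Hollow and 7.27, 10.3 and 24.2 CPM across AFMC (2.13 ± 0.43). On the lower side Zbtb20, a zinc finger repressor, was at 11.1, 8.13 and 3.78 CPM across Hollow and 1.26, 2.81 and 1.94 CPM across AFMC (-1.95 ± 0.42), the homeobox gene Hdx at 2.401, 2.19 and 1.84 CPM across Hollow and 0.830, 0.919 and 0.696 CPM across AFMC (-1.39 ± 0.26) and Frmd3 at 2.801, 4.28 and 2.42 CPM across Hollow and 0.790, 1.46 and 0.646 CPM across AFMC (-1.72 ± 0.34). Values of log2 fold change are given ± SE with n = 3 per group.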
